A study of Arabidopsis thaliana with 6 samples.

Results

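The genes described here are the 6 members of the FLC clade of MADS-box floral repressors (FLC, FLM, MAF2, MAF3, MAF4 and MAF5), their partner SVP, and VIN3, which silences FLC after cold. They were picked by locus identifier, and all 8 of them are among the 33602 loci in the count files. Transcripts were read from 3 wild-type plants of Arabidopsis thaliana Col-0, numbered 22, 23 and 24, and from 3 isogenic plants of an msh1 memory line, numbered 31, 32 and 33, each sequenced as its own library. As background, memory lines descend from plants in which the organelle-targeted protein MSH1 was suppressed, and they keep an altered growth state after the suppressing construct has been lost. The labels give all 6 plants the same growth at 22 °C after stratification at 4 °C for 2 days. Light was 120 to 150 µmol per square metre and second for all of them. Harvest was of the whole plant when bolting began. The labels give neither day length nor the hour of harvest. How many parent plants or sublines the memory plants come from is not given in the sources used here.

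MADS-box proteins bind DNA through a conserved domain at their start and act in dimers and larger complexes. FLC holds back flowering in rosettes by repressing FT, the mobile flowering signal, and SOC1, an activator of floral identity genes. SVP joins FLC and FLM in such complexes, FLM acts in the response to ambient temperature, and the MAF genes are weaker repressors of the same type. In winter, prolonged cold induces VIN3, a PHD-finger protein that works with Polycomb repressive complex 2 (PRC2) to shut FLC down. The Col-0 accession lacks a functional FRIGIDA allele and therefore makes little FLC even without winter.

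FLC (AT5G10140) occupies chromosome 5 from 3173382 to 3179448 on the minus strand, and VIN3 (AT5G57380) lies on the same chromosome from 23246395 to 23249504. MAF2 (AT5G65050), MAF3 (AT5G65060), MAF4 (AT5G65070) and MAF5 (AT5G65080) stand in a row on the plus strand of chromosome 5 between 25982254 and 26002619. FLM (AT1G77080) is on chromosome 1 from 28955483 to 28960234 and SVP (AT2G22540) on chromosome 2 from 9579647 to 9583901. All positions are from the RefSeq annotation of TAIR10.1.

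The start of the coding sequence shows how alike these genes are, which bears on how well their reads can be told apart. Below are 60 bases from TAIR10.1 that encode the start of the MADS domain, with capitals where a base differs from FLC. For MAF5 the window begins 21 bases after its annotated start codon, where it lines up with the others.
FLC: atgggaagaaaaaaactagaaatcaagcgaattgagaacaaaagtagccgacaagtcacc
FLM: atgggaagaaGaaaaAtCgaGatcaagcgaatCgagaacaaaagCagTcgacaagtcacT
MAF2: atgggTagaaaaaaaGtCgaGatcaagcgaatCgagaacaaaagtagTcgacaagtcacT
MAF3: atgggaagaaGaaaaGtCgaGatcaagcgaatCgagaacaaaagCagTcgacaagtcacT
MAF4: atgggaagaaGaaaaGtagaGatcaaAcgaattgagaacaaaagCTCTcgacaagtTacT
MAF5: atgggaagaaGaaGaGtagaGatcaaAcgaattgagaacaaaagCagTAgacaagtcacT
SVP: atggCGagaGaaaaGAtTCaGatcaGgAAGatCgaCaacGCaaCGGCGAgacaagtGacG

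Within the clade the windows differed from FLC at 7 to 10 of 60 bases, while SVP differed at 24. FLM and MAF3 differed from each other at 1 base, although they lie on different chromosomes. Further along the transcripts the genes diverge. Of the 50-base stretches of each spliced transcript, 1.26% in MAF3, 1.15% in FLM and 0.195% in MAF2 also occur outside the gene in the nuclear genome. For FLC, MAF4, MAF5, SVP and VIN3 no such stretch recurs, so a read of 50 or more matching bases has 1 exact place for nearly the whole of each transcript.

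The promoters of these genes, here the 250 bases before the annotated start and the 50 after it, carry traces of the same descent. FLM and MAF2 share an identical run of 35 bases. Within the 40 bases shown next, 34 are the same in FLM, MAF2 and MAF3 and stand in capitals. The windows are on the plus strand at chr1:28955391-28955430, chr5:25982065-25982104 and chr5:25987186-25987225, and begin 92, 189 and 123 bases before the annotated starts.
FLM: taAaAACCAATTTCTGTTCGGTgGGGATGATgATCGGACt
MAF2: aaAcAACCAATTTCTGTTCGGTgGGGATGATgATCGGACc
MAF3: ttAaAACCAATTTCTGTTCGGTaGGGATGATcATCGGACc

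MAF4 and MAF5 have a different shared stretch, at chr5:25992046-25992075 and chr5:25997388-25997417, in which 24 of 30 bases are the same and stand in capitals.
MAF4: TCgaCATGCGTTAATACGTGTCTAaAcTcc
MAF5: TCagCATGCGTTAATACGTGTCTAgAtTtg

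Sites of 4 kinds were searched on both strands of each promoter window: the G-box (CACGTG), the evening element (AAATATCT), the RY motif (TGCATG), and the CArG-box bound by MADS proteins. The motifs do not overlap each other in the members. A G-box is present in 6.90% of 32834 promoters of the same length, an evening element in 5.29%, an RY motif in 10.4% and a CArG-box in 2.80%. No member holds a CArG-box or an RY motif in this window. FLC and VIN3 each hold both a G-box and an evening element, a pair found in 0.42% of all promoters, and MAF5 holds an evening element 168 bases before its start. These matches describe the sequence and were not tested for binding. The FLC and VIN3 windows are shown because these are the members with the fewest reads, with the motifs in capitals. They are the minus strand of chr5:3179399-3179698 for FLC and of chr5:23249455-23249754 for VIN3.
FLC: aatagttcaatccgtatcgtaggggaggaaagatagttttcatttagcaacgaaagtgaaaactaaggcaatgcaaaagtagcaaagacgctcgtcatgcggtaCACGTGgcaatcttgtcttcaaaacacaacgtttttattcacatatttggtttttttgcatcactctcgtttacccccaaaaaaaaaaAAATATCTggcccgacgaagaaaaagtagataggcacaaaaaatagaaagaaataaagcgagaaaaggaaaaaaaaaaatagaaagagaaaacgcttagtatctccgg
VIN3: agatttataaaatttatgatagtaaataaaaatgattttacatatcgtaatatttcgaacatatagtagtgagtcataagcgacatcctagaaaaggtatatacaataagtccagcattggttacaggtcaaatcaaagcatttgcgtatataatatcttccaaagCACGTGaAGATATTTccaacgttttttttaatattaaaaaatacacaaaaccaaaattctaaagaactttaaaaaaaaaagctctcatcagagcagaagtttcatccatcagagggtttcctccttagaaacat

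In FLC, the RY motif bound by the repressors VAL1 and VAL2 lies inside the gene. The first intron, 3493 bases long, holds 2 copies, 583 and 616 bases after the annotated start. They are shown in capitals in the minus strand of chr5:3178816-3178878.
FLC: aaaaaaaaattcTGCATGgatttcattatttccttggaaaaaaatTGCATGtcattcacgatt

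Library totals ranged from 4060216 to 5806617 counts. Levels are given as CPM, read counts scaled to the library size with the factors of the trimmed mean of M values (TMM). A gene with no read may still stand at up to 0.517 CPM in the deepest library and 0.739 CPM in the shallowest, taking 3 counts as the limit and covering counting error only. Wild-type plant 23 stood apart: its log2 CPM correlated with the other wild-type plants at 0.945 and 0.933 across genes, against 0.970 to 0.976 among memory plants. It also had 1 read in 4 shoot meristem markers, where the other 5 plants had 25 to 60. 6 leaf markers summed to between 45554.5 and 64971.3 CPM in every plant. Of 10 root markers, 6 to 9 were at 0 in each plant, and EXPA7, LRX1, MYB36, IRT1 and PRP3 were at 0 in all of them. Nearly all reads of the list came from PYK10, a root-enriched glucosidase gene: wild-type plants 22, 23 and 24 gave 115, 1 and 102 of them, and memory plants 47, 107 and 50. 12 flower markers summed to 5.92 to 9.26 CPM over the wild-type plants, against 8.31 to 12.8 CPM over the memory plants. Among them, chosen after their values were seen, the petal and stamen identity gene AP3 was at 0 in all wild-type plants, against 4, 7 and 4 reads in memory plants (edgeR adjusted p = 0.0690 without a low-count filter). SEP2, a floral organ identity cofactor, had 1, 0 and 1 against 5, 7 and 13 reads (edgeR adjusted p = 0.0572 in that fit), while LAP6 had 19, 21 and 13 against 12, 10 and 8. The targeted gene of the line's history, MSH1, had 97, 65 and 70 reads in wild-type plants and 59, 65 and 73 in memory plants. In whole-plant RNA, fewer cells of a type and less RNA per cell cannot be told apart.

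The 8 genes differed from each other far more than the groups did. Levels are compared between genes as CPM per kilobase of the transcript with the longest coding sequence, over all 6 plants. SVP was highest at 128.3 ± 11.3 (SD, n = 6), followed by FLM at 28.7 ± 3.73, MAF2 at 17.8 ± 2.64 and MAF3 at 8.46 ± 1.91. The ranges of these 4 genes over plants did not touch, and their order was the same in all 6 plants. SVP stood 4.48 times above FLM, FLM 1.61 times above MAF2, and MAF2 2.1 times above MAF3. Below them came MAF5 at 1.66 ± 1.45, MAF4 at 1.11 ± 0.761, FLC at 0.40 ± 0.32 and VIN3 at 0.0173 ± 0.0424 CPM per kilobase. Each neighbouring pair in that lower set had overlapping ranges, so the order within such a pair is not settled by these plants. VIN3, at no more than 0.104 CPM per kilobase in any plant, did lie below the lowest plants of MAF5 (0.254) and MAF4 (0.457). These lowest values rest on very few reads. Dividing by coding length in place of transcript length gave the same order of means.

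**Figure D1:**
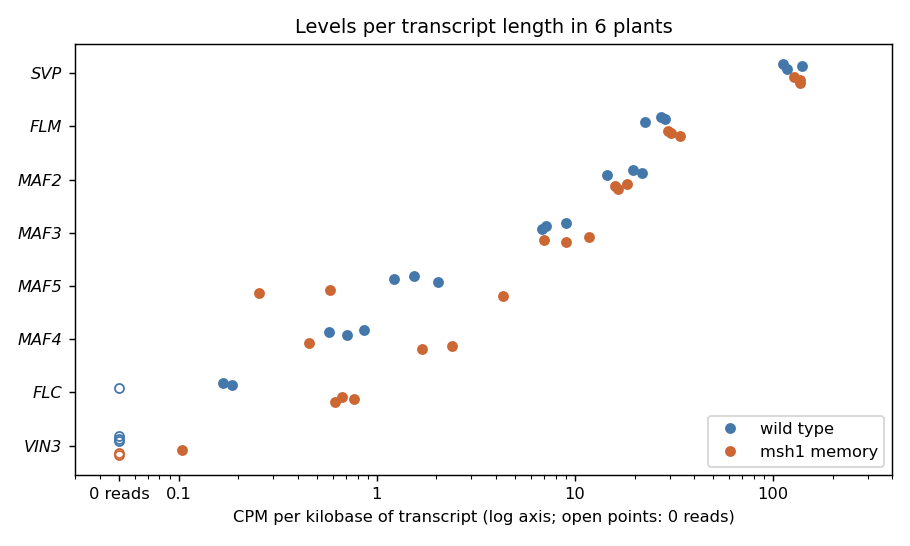
CPM per kilobase of transcript (log axis) for the 8 genes, 1 point per plant, blue for the 3 wild-type and orange for the 3 memory plants. Open points at the left edge are plants with 0 reads. SVP, FLM, MAF2 and MAF3 form separate steps, while neighbouring genes in the row MAF5, MAF4, FLC and VIN3 overlap near the detection limit.

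Of the 8 genes, none passed the test between memory and wild-type plants, and 4 had too few reads to be tested. The test was the quasi-likelihood test of edgeR on TMM-scaled counts, with Benjamini-Hochberg adjustment over 16928 genes and a threshold of 0.05. SVP, FLM, MAF2 and MAF3 passed the filter on low counts, and FLC, MAF4, MAF5 and VIN3 did not. Over all tested genes 1.82% were called, 76 of them (0.449% of those tested) higher and 232 (1.37%) lower in memory plants, or 98 and 174 when libraries were scaled by their totals alone. None of the 4 tested members had an unadjusted p under 0.05 either, a level that 12.8% of all tested genes passed. With libraries scaled by their totals alone, FLM did reach that level (log2 difference 0.33, unadjusted p = 0.0451, edgeR adjusted p = 0.364). Without the low-count filter edgeR called 0 of 8, with none under 0.05 before adjustment, where it called 2.02% of all loci with reads. DESeq2, which called 2.81% of its genes, and limma voom, which called 1.32%, also called 0 members, with none under 0.05 before adjustment. The 4 log2 fold changes (memory minus wild type) had a median of 0.19, and the median over all tested genes was 0.01.

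**Figure D2:**
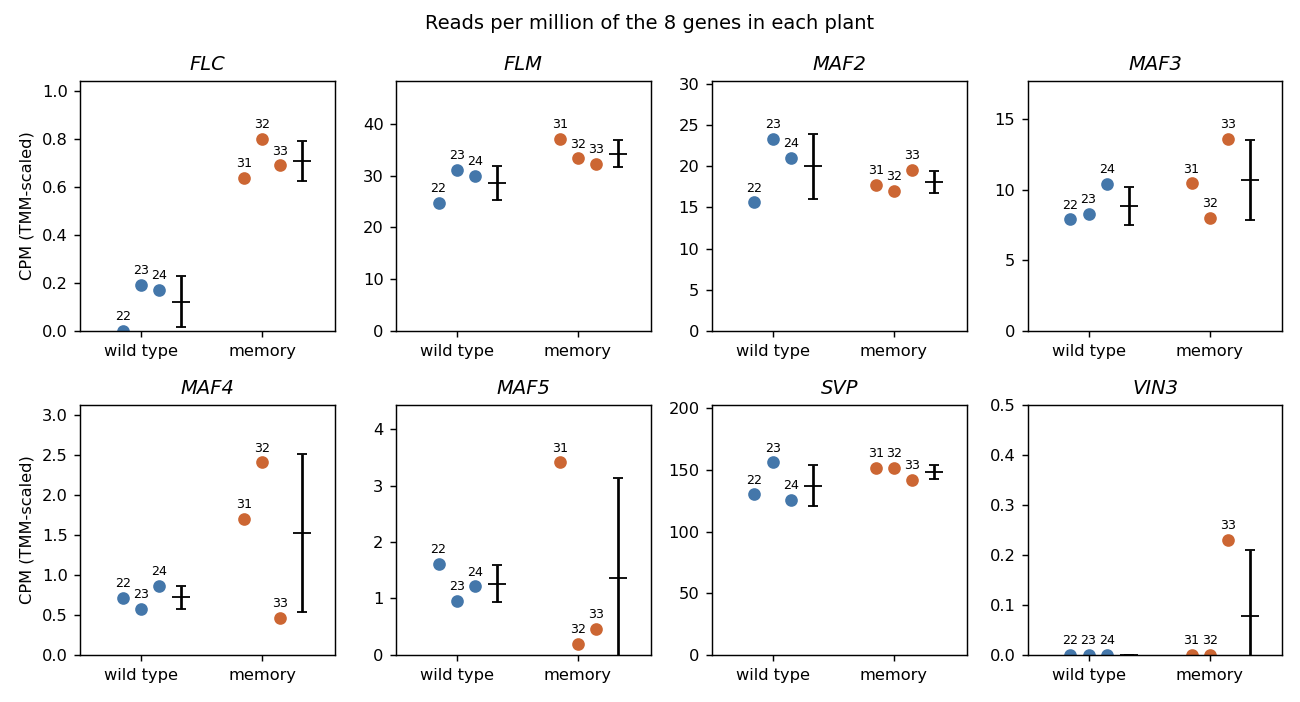
TMM-scaled CPM of each of the 8 genes in each plant, with plant numbers at the points and the group mean ± SD beside them (n = 3). Each panel has its own linear axis from 0. SVP, MAF2 and MAF3 overlap between groups, and FLM and FLC do not, FLC with at most 4 reads in a plant.

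SVP, the partner of FLC and FLM, was abundant and even. It stood at 130.1, 156.0 and 125.5 CPM in plants 22, 23 and 24, and at 151.8, 151.7 and 141.8 CPM in plants 31, 32 and 33. After TMM scaling the highest plant of all was wild type, and the groups overlapped. Scaled by library totals alone they did not overlap. Wild-type plants then stood at 132.8, 143.6 and 124.5 CPM, and memory plants at 154.5, 149.6 and 151.5 CPM. The log2 difference at that scaling was 0.18 (edgeR adjusted p = 0.588, unadjusted p = 0.165). How many of all tested genes separate at that scaling was not counted. The group means were 137.2 ± 16.4 and 148.4 ± 5.73 CPM (SD, n = 3 each). On the log2 scale memory plants were 0.11 higher (SE 0.139, adjusted p = 0.805 in edgeR), and the 95% interval of the fold runs from 0.877 to 1.34. Its spread over the 6 plants, an SD of 0.129 on the log2 scale, was larger than that of only 18.8% of 1149 genes of like level, meaning within 1.5 times of its mean CPM.

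FLM, whose splice forms respond to temperature, was the 1 tested member whose groups did not overlap after TMM scaling. The difference did not pass the test. FLM stood at 24.8, 31.0 and 29.9 CPM in wild-type plants and at 37.1, 33.3 and 32.3 CPM in memory plants. All memory plants lay above all wild-type plants. Such a separation upward was found in 9.52% of the tested genes. Means were 28.6 ± 3.33 and 34.2 ± 2.53 CPM (SD, n = 3 each), which differ by 0.26 on the log2 scale (SE 0.152, adjusted p = 0.530 in edgeR). The fold lies between 0.953 and 1.51 at 95% confidence. Counts per gene do not resolve the splice forms, of which the annotation lists 11 transcripts.

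MAF2, which delays flowering after short cold spells, was read 329 times in wild type and 253 times in memory plants. It stood at 15.6, 23.3 and 21.0 CPM in plants 22, 23 and 24 and at 17.7, 17.1 and 19.6 CPM in plants 31, 32 and 33. The memory plants fell inside the wild-type range. The fitted log2 difference was -0.14 (SE 0.192, adjusted p = 0.827 in edgeR), and the 95% interval of the fold runs from 0.678 to 1.21.

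MAF3, the next gene in the row, stood at 7.90, 8.29 and 10.4 CPM in wild-type plants and at 10.4, 8.03 and 13.6 CPM in memory plants. Memory plant 33 was the highest and the groups overlapped. The fitted log2 difference was 0.26 (SE 0.258, adjusted p = 0.737 in edgeR), with a 95% interval of the fold from 0.813 to 1.77. The sign of the fold change was positive for SVP, FLM and MAF3 and negative for MAF2 under each of the 13 other settings, and no setting brought any of the 4 past the threshold.

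**Figure D3:**
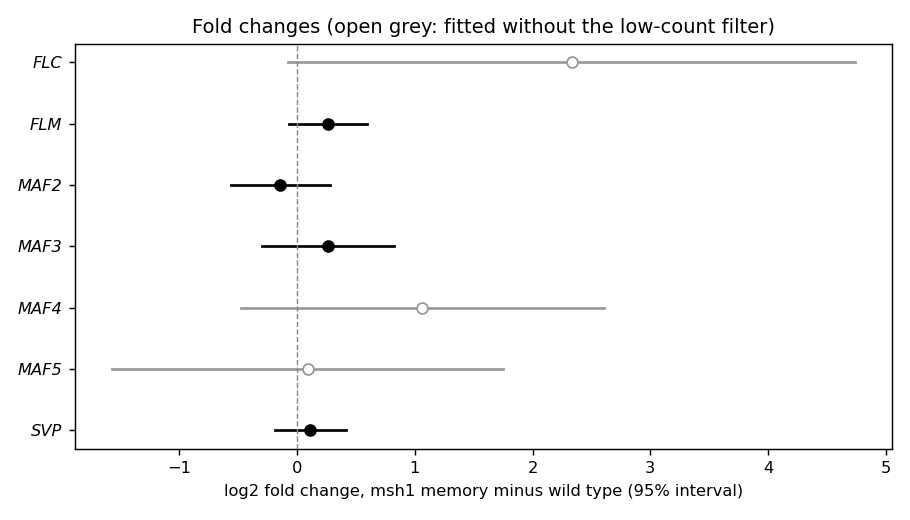
Log2 fold change of memory against wild-type plants with its 95% interval from edgeR. Filled black points are the 4 tested genes, and open grey points are FLC, MAF4 and MAF5 from the fit without a low-count filter. Every interval includes 0. VIN3 is left out because it has 1 read in all.

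FLC, the central repressor, was at the edge of detection in every plant. Wild-type plants 22, 23 and 24 gave 0, 1 and 1 reads, and memory plants 31, 32 and 33 gave 3, 4 and 3. In CPM these are 0, 0.193 and 0.174 against 0.639, 0.803 and 0.692. The memory plants were all above the wild-type plants, but the difference rests on 12 reads in all. The ratio of summed reads per library total was 6.16, with an exact 95% interval from 1.31 to 57.8 that covers counting error only and not the spread between plants. Fitted without the low-count filter, edgeR gave a log2 difference of 2.33 (SE 1.16, adjusted p = 0.479), and DESeq2 gave an unadjusted p of 0.120 and no adjusted value. An exact permutation test over plants, counting both tails, gave p = 0.1, the smallest this design allows. Among 1870 loci with 6 to 24 reads in all 6 libraries, 9.41% had every memory plant above every wild-type plant.

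On the other strand of FLC the annotation places AT5G01675, which overlaps it. As background, antisense transcripts called COOLAIR are known from this locus. The library kit does not mark strand, so the 12 reads cannot be assigned to FLC or to the overlapping gene.

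VIN3, which cold induces, was close to undetected. It had 1 read, in memory plant 33, and 0 in the 5 other plants. Over 30622380 counts in all, 3 counts correspond to 0.098 CPM. AT5G57370, on the opposite strand, overlaps only the end of VIN3: it stops at 23246420, and VIN3 reaches down to 23246395. It had 169 reads in wild type and 159 in memory plants. No fold is given for VIN3.

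MAF4 and MAF5, at the far end of the tandem row, were low and uneven among the memory plants. MAF4 had 4, 3 and 5 reads in wild-type plants (0.718, 0.578 and 0.868 CPM) and 8, 12 and 2 reads in memory plants (1.71, 2.41 and 0.461 CPM). MAF5 had 9, 5 and 7 reads in wild-type plants (1.62, 0.964 and 1.21 CPM) and 16, 1 and 2 reads in memory plants (3.41, 0.201 and 0.461 CPM). The highest and the lowest plant of each gene were both memory plants, plant 32 and plant 33 for MAF4 and plant 31 and plant 32 for MAF5. Without the low-count filter edgeR gave MAF4 a log2 difference of 1.06 (SE 0.743, adjusted p = 0.669) and MAF5 one of 0.09 (SE 0.795, adjusted p = 0.980).

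Reads of the row came mostly from its first gene. MAF2 held 60.4%, 70.3% and 62.7% of the MAF2 to MAF5 reads in plants 22, 23 and 24, and 53.2%, 61.6% and 57.4% in plants 31, 32 and 33. The groups overlapped, since plant 32 lay above plant 22. MAF3 held 25.0% to 31.1% in wild-type plants and 29.0% to 39.9% in memory plants. MAF4 held 1.74% to 2.78% and 1.35% to 8.70%, and MAF5 2.91% to 6.25% and 0.725% to 10.3%. With 138 to 193 reads in the row per plant, exact binomial intervals are wide: the 8.70% of MAF4 in plant 32 has an upper 95% bound of 14.7%. Wild-type plants held 30.8 ± 4.33 CPM over the 4 genes together and memory plants 31.7 ± 3.49 CPM (SD, n = 3 each).

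**Figure D4:**
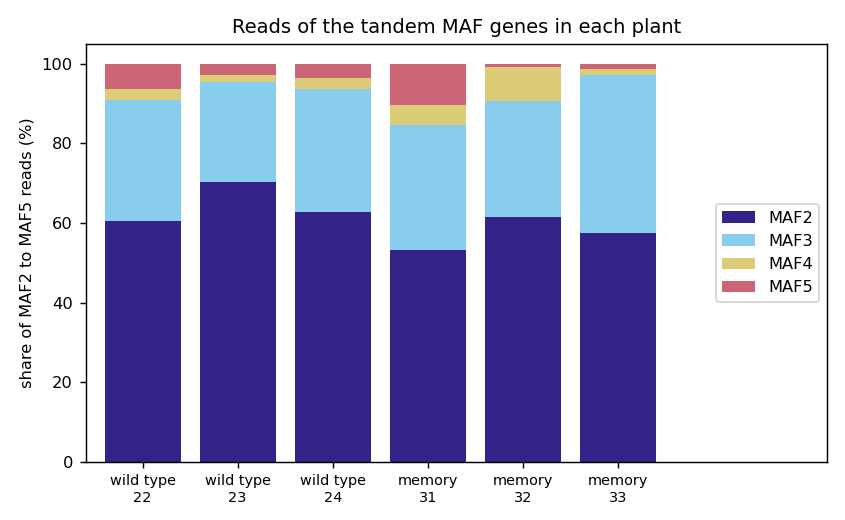
Share of the reads of the 4 tandem genes MAF2, MAF3, MAF4 and MAF5 that fell on each, stacked to 100% in each plant, with wild-type plants at the left and memory plants at the right. MAF2 takes the largest share in every plant, between 53.2% and 70.3%, and the small shares of MAF4 and MAF5 vary most among the memory plants.

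Loci next to these genes were compared too, taking 3 on each side of FLC, FLM, SVP, VIN3 and the MAF row by locus number. Of 30 such loci 17 were tested and none was called by edgeR, with 1 at an unadjusted p under 0.05. That one, named after its values were seen, is MIPS3 (AT5G10170), a myo-inositol phosphate synthase gene 3 loci from FLC, with a mean of 18.9 ± 2.75 CPM over wild-type plants against 11.4 ± 0.671 CPM over memory plants (SD, n = 3 each; edgeR adjusted p = 0.0947). MIPS3 overlaps another annotated gene, AT5G10160, on the opposite strand, only between 3187277 and 3187312. DESeq2 called 0 of the 30. Without plant 23, AT1G77090, the locus next to FLM, passed at a log2 fold change of 0.47 (edgeR adjusted p = 0.0474), where the fit with all plants gave 0.33 (edgeR adjusted p = 0.403).

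Genes whose values over the 6 plants ran most alike were found by the root mean square difference of log2 CPM after centring each gene on its mean. For SVP the nearest of 14422 genes were UBP9, a ubiquitin protease gene (0.0227), GUN4, a gene of chlorophyll synthesis (0.0259), and FAD7, a plastid fatty acid desaturase gene (0.0272). For FLM they were AT3G27110 (0.0381), the tryptophan synthase gene TSBtype2 (0.0505) and AT1G14345 (0.0540). For FLC, whose pattern rests on 12 reads, they were AT1G33260 (0.131), MES18 (0.156) and MIPS2 (0.157). These distances are log2 units over 6 plants and carry no test.

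Genes that control FLC were mostly within the spread between plants. Of 18 tested genes of the autonomous pathway and RNA processing, which keep FLC low, 1 fell and none rose, with a median log2 fold change of -0.00231. Among all tested genes 1.37% were called lower. The one that fell is GRP7, which encodes an RNA-binding protein of the clock that lowers FLC and acts in splicing. It stood at 248.4, 253.4 and 268.3 CPM in wild-type plants and at 52.4, 45.3 and 58.3 CPM in memory plants. The groups were far apart, by -2.30 on the log2 scale (SE 0.149, adjusted p = 2.34e-05 in edgeR), and the call held under all 13 other settings. Also in the list, and named with their values seen, FCA at 25.5 ± 2.55 and 27.3 ± 5.61 CPM, FPA at 39.6 ± 3.03 and 40.7 ± 4.05 CPM and FLD at 11.8 ± 3.38 and 12.4 ± 2.03 CPM (SD, n = 3 each) did not pass. In this list 2 genes had every memory plant above every wild-type plant, as did 9.52% of all tested genes. For 3 genes, GRP7 among them, every memory plant lay below. The share of all tested genes that separate downward was not counted.

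Of 24 tested activators of FLC, which include the FRIGIDA complex, the PAF1 complex and trithorax-type factors, none passed in edgeR, and 1 had an unadjusted p under 0.05. That was PIE1, a subunit that helps place the histone variant H2A.Z, with a mean of 66.6 ± 14.2 CPM over wild-type plants against 49.0 ± 7.61 CPM over memory plants (SD, n = 3 each; edgeR adjusted p = 0.316). PIE1 overlaps another annotated gene on the opposite strand. DESeq2 called none of them.

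Of 15 genes listed with the silencing of FLC, 13 were tested and none passed. The list holds PRC2 subunits, relatives of VIN3, and VAL1 and VAL2, but also ELF6, which is not a silencer of FLC. 11 of the 13, ELF6 among them at 0.04, had positive log2 fold changes, and no test was run on that count. The median of the 13 was 0.13, and that of all tested genes was 0.01. An unadjusted p under 0.05 was reached by 1 of the 13, and by 12.8% of all tested genes. The smallest p belonged to VRN5, the partner of VIN3 in FLC silencing, at 21.0, 15.6 and 15.3 CPM in wild-type plants and 21.5, 23.7 and 23.8 CPM in memory plants. On the log2 scale memory plants were 0.41 higher (SE 0.181, edgeR adjusted p = 0.370, unadjusted p = 0.0434). VEL3 had no read in any plant and VEL2 had 1.

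Of 22 floral integrators and repressors, listed as downstream of FLC and SVP, 14 were tested, 2 rose and 2 fell. Over all tested genes 0.449% were called higher and 1.37% lower. The list is broader than targets of FLC and SVP, since it also takes in age-pathway genes and repressors of FT. SOC1, a direct target of FLC and SVP, rose from 45.6, 60.2 and 47.9 CPM to 79.1, 83.7 and 89.2 CPM (0.71 on the log2 scale, SE 0.147, adjusted p = 0.0301 in edgeR). SPL4, an age-pathway promoter of flowering, rose from 48 reads in wild type to 109 in memory plants, a log2 fold change of 1.41 (edgeR adjusted p = 0.0460), and overlaps AT1G07867 on the opposite strand. The repressors of FT TEM1 and TEM2 fell by 1.62 and 1.72 on the log2 scale (edgeR adjusted p = 0.00905 and 0.0284). Both were highest in wild-type plant 24, at 140.9 and 136.6 CPM, with 55.5 to 85.2 CPM in plants 22 and 23 and 27.1 to 34.7 CPM in memory plants. FT itself had 0 reads in all 6 plants, and its homologue TSF had 1. With single plants left out these genes lost their calls, at fold changes about as large in the fits that lost them. SOC1 was no longer called without plant 22, 24, 31, 32 or 33, at log2 fold changes of 0.64 to 0.76 (edgeR adjusted p from 0.0904 to 0.172), nor SPL4 without the same plants, at 1.29 to 1.56 (0.0622 to 0.228). TEM1 was not called without plant 31, 32 or 33, at -1.69 to -1.58 (0.0629 to 0.0858), nor TEM2 without plant 22, 31, 32 or 33, at -1.78 to -1.69 (0.0691 to 0.152). Over all 13 other settings the log2 fold change ran from -1.78 to -1.26 for TEM1 and from -1.98 to -1.32 for TEM2. Calls over all tested genes also went from 308 to between 34 and 65 when a memory plant was left out. The meristem markers stood at 0.193 CPM in plant 23 and at 5.33 to 13.8 CPM in the 5 others. Memory plant 31, at 5.33 CPM, lay below wild-type plants 22 and 24, at 5.92 and 9.20 CPM. SOC1 was highest of the wild type in plant 23. Of the flower markers given above, AP3 and SEP2 had more reads in memory plants and LAP6 had fewer. The part of tissue make-up in the result was not tested.

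Of 4 factors that act on VIN3, 3 were tested. LHY, a dawn clock factor, rose from 24.2, 24.1 and 18.6 CPM to 44.8, 50.4 and 61.1 CPM (1.22 on the log2 scale, SE 0.171, adjusted p = 0.0044 in edgeR), with the call lost without plant 33 at a fold change about as large (1.09 on the log2 scale, adjusted p = 0.0510). CCA1, its partner and a known activator of VIN3, stood at 121.7 ± 36.6 and 208.7 ± 4.39 CPM (SD, n = 3 each) and did not pass (edgeR adjusted p = 0.0640). It passed without plant 23 (log2 fold change 1.06 against 0.78). Since the hour of harvest is not given, a difference in hour cannot be told apart from one in line for the clock genes GRP7, LHY and CCA1. NTL8, a cold-sensing NAC factor that induces VIN3, had 3 reads in wild type and 1 in memory plants. Among 12 other MADS-box genes of the same structural type, 4 were tested and none passed. The smallest p was that of AGL42, a relative of SOC1, at 3.77, 1.35 and 8.68 CPM in wild-type plants and between 9.59 and 12.2 CPM in memory plants (edgeR adjusted p = 0.350), and it passed without plant 24 (log2 fold change 2.03, edgeR adjusted p = 0.0288). All lists together held 76 tested genes, of which 3 rose and 3 fell, and their median log2 fold change was 0.05. Over all tested genes 1.82% were called, 0.449% higher and 1.37% lower. The lists were chosen with earlier results of these data known, so their counts of calls cannot be weighed against these shares.

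**Figure D5:**
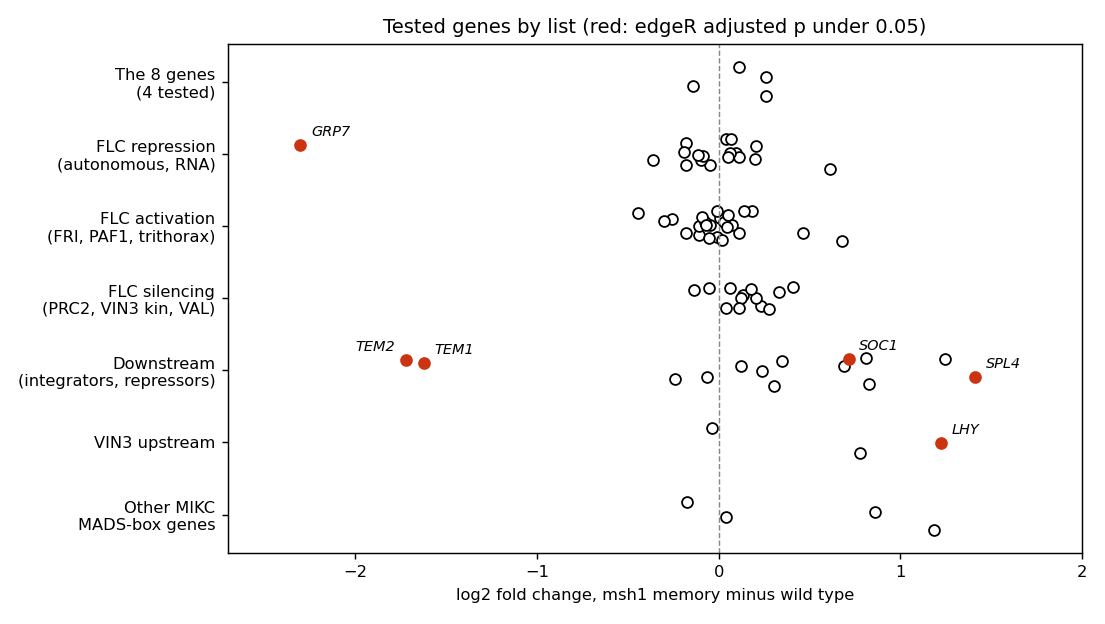
Log2 fold change of memory against wild-type plants for the tested genes of each list, 1 point per gene, with the 4 tested members on top. Red points passed the edgeR test at an adjusted p of 0.05. The calls are GRP7, SOC1, SPL4, TEM1, TEM2 and LHY, and the members lie between -0.14 and 0.26.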

How the data were processed

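The deposited files hold raw read counts per gene, 1 file per plant, as the authors made them. TAIR10 and DESeq2 are named in the submitters' processing notes. The aligner, the counter, its use of strand and its handling of multiply matching reads: not given in the sources used here. The 279 organelle loci are at 0. Names, positions and sequences come from RefSeq for TAIR10.1, which matched 32835 of 33602 loci by identifier, since the files carry no coordinates.

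Counts were filtered with filterByExpr (minimum count 10, minimum total 15), scaled by TMM and tested with edgeR 4.0.16 (robust quasi-likelihood, both tails) in R 4.3.3, with adjustment over 16928 genes. Each SE is the absolute fold change on the log2 scale over the root of F. The scripts were tested on simulated data: false calls stayed under the nominal share when dispersions followed the trend, but exceeded it in edgeR, DESeq2 and limma voom when dispersions were gene-wise, so calls close to the threshold are less certain than their adjusted p. Alternatives were DESeq2 1.42.0, limma voom 3.58.1, other scalings and filters, and each plant left out. p-values measure the spread between individual plants. The members and lists were chosen with earlier results of these data known. Named genes are all 8 members, the called genes of each list or else the one with the smallest p, called neighbours, and the 3 genes nearest in pattern to FLC, FLM and SVP among those averaging 5 CPM (prior count 2). FCA, FPA, FLD, CCA1, FT, TSF, NTL8, VEL2, VEL3, MIPS3 and AT1G77090 were added with their values seen.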

Additional observations from a re-analysis of the deposited data

How the results depend on the processing

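No setting called any of the 8 genes: the count was 0 in each of the 13 alternatives, 6 of which leave out 1 plant. Most settings tested only 4 of the 8 and could not call the others. The filter at 1 CPM left 5, DESeq2 gave adjusted values for 6, and only the fit without a low-count filter tested all 8. The main fit called 1.82% of all tested genes, so 0 among so few genes says little. The log2 fold change ranged from 0.06 to 0.22 for SVP, 0.17 to 0.33 for FLM, -0.29 to -0.01 for MAF2 and 0.06 to 0.44 for MAF3. The number of genes called over the whole table was 308, and 523 with DESeq2 (118 higher, 405 lower). With single plants left out it ranged from 34 (without plant 31) to 1020 (without plant 23); it was 65 without plant 32 and 38 without plant 33. Calls in the lists were 6 and ranged from 1 to 7 with single plants left out, with 3 without plant 22, 2 without plant 31 or 32 and 1 without plant 33. Neighbouring loci gave 0 or 1. The mean MAF2 share moved between 61.6% and 66.5% in wild type and 55.3% and 59.5% in memory plants, an alternative chosen after seeing the data. Beyond the plants named in the Results, SPL4 lost its call with limma voom (adjusted p = 0.0704) and TEM2 with library totals (edgeR adjusted p = 0.0587), and AGL42 and SEP3 passed when plant 24 was left out (edgeR adjusted p = 0.0288 and 0.0453), and CCA1 passed with library totals, without a low-count filter and with DESeq2. No paired analysis was possible because wild-type and memory plants carry different numbers. Depth limits FLC, MAF4, MAF5 and VIN3, which had at most 16 reads in a plant.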

Other observations

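Flowering genes were low in some cases and high in others in wild-type plant 23, the plant that stood apart, and those named here were picked after their values were seen. AGL24, a floral promoter related to SVP, stood at 2.70 CPM in plant 23, while plants 22 and 24 held 14.9 and 12.8 CPM and memory plants 16.4, 19.1 and 18.2 CPM. FUL, a MADS-box gene of the inflorescence, had 9 reads in plant 23, 12 and 26 in plants 22 and 24, and 28, 35 and 31 in memory plants. SEP3, which FLC and SVP are known to repress, had 0 reads in plants 22 and 23, 10 in plant 24, and 10, 8 and 20 in memory plants. For FUL and SEP3, plant 24 and not plant 23 differed most from the other wild-type plants. Other genes were highest of the wild type in plant 23: SOC1 at 60.2 CPM against 45.6 and 47.9 CPM, the FT repressor gene TOE1 at 124.8 against 86.0 and 78.6 CPM, and its relative SNZ at 45.5 against 30.9 and 26.9 CPM. SVP, at 156.0 CPM, and MAF2, at 23.3 CPM, also had their highest TMM-scaled values there. Developmental stage and tissue make-up of single plants cannot be told apart from genotype in these values.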
